A study of Caenorhabditis elegans with 22 samples.

Results

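The lbp genes of Caenorhabditis elegans encode small lipid binding proteins of the family of intracellular fatty acid binding proteins. The 9 genes whose symbol in the deposited count table was lbp-1 to lbp-9 were taken from the 19598 genes of that table, and all 9 passed the filter on low counts that left 16431 genes for testing. The table covered 22 libraries of whole adults, and the series asked how feeding and fat storage respond to serotonin receptor signalling. Serotonin is the neurotransmitter that stimulates feeding in this animal, and loxapine is a tricyclic antipsychotic drug that binds several receptors for serotonin and dopamine.

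From the wild-type strain N2 there were 5 DMSO libraries, numbered 2 to 6, and 3 libraries for each of the 2 compounds. Animals carrying ser-7(vq2) were sampled 3 times on DMSO and 3 times on serotonin, and animals carrying ser-5(vq1) 3 times on DMSO and 2 times on loxapine. Both genes encode serotonin receptors. The labels name the alleles without describing the lesions and do not give the number of animals behind a library. Every group was raised in liquid culture in multiwell plates on X-ray-killed OP50 bacteria and was sterilised with 0.12 mM FUDR, an inhibitor of DNA synthesis, as L4 larvae. Serotonin at 5 mM or loxapine at 50 µM was present from day 1 of adulthood, and animals were collected 72 h later. Loxapine was dissolved in DMSO and serotonin in water, with DMSO as the control for both. No label tells if DMSO was added alongside serotonin. Whether the serotonin groups and their controls differed in solvent is thus not known, and the part of such a difference was not tested.

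Members of this family fold into a small barrel that holds a fatty acid or a related lipid, which makes an insoluble molecule transportable within a cell. LBP-1, LBP-2 and LBP-3 differ from most of the family in carrying a secretion signal, and LBP-3 released by the intestine has been described as a carrier of lipid messages to neurons. LBP-8 has been described as a shuttle that takes a lipid signal made by the lysosomal lipase LIPL-4 into the nucleus, where the nuclear receptors NHR-49 and NHR-80 act. LBP-5 has been described as a fatty acid binding partner of NHR-49.

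Libraries held 25652111 to 39765014 counts each. The receptor mutations were visible in the libraries: ser-7 had 0 or 1 count in each of the 6 ser-7 libraries against 36 to 106 in the other 16, and ser-5 had 5 to 21 counts in the 5 ser-5 libraries against 45 to 106 in the other 17. Because the labels leave unstated whether replicates came from separate cultures, the p-values reflect only the scatter among these samples, which may be technical. Among N2 libraries with DMSO, replicates 2 and 5 and replicates 3 and 6 were closer to each other than any other pair of a group, with a chi-square per degree of freedom of 5.16 and 4.03 against 12.58 to 150.7, so that standard errors against this group may be too small. Consecutive library numbers in the labels fell into 3 series, called library series 1, 2 and 3 here, and each group except ser-5 with loxapine had libraries in all 3. Levels are CPM, edgeR's counts relative to the TMM-scaled library total.

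By Ensembl release 115 on WBcel235, all 9 genes were protein coding and lay on 3 chromosomes. On chromosome X, lbp-3 (chrX:3257372-3258155), lbp-1 (chrX:3259142-3259812) and lbp-2 (chrX:3260610-3261470) followed each other on the plus strand, with 986 and 797 nucleotides between them and no other gene in the gaps. On chromosome I, lbp-6 (chrI:6728296-6729376) and lbp-5 (chrI:6731267-6732276) lay on the minus strand, 1890 nucleotides apart, with ant-1.2 between them. The plus strand of chromosome V held lbp-9 (chrV:2068449-2069142), lbp-4 (chrV:7820578-7821477), lbp-7 (chrV:13879552-13880213) and lbp-8 (chrV:13890773-13891364). The last pair was separated by 10559 nucleotides and 3 protein-coding genes. How the counting treated reads that match several family members, and whether it used strand, is not given in the sources used here.

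Per kilobase of exon, lbp-2 was the most abundant family member in N2 with DMSO, with 1402 ± 106 CPM per kb (SD, n = 5), which was 45.4% of the sum of all 9. Next came lbp-9 with 569.7 ± 23.4 and lbp-1 with 502 ± 45.5 CPM per kb. The middle of the range was held by lbp-6 with 253 ± 25.7 and lbp-3 with 236 ± 2.63 CPM per kb. Lower still were lbp-4 at 60.5, lbp-5 at 43.7 and lbp-7 at 20.1 CPM per kb, and lbp-8 supplied 1.43 CPM per kb, or 0.0462% of the sum. With serotonin in N2, the share of lbp-2 was 25.3% and that of lbp-9 was 37.8%, so that lbp-9 took the first place. With loxapine in N2, lbp-2 held 38.1% and lbp-9 25.6%. In the 4 groups of receptor mutants, lbp-2 held 45.0% to 47.9% and lbp-9 18.5% to 20.2%. The sum over the family was 3089 CPM per kb in N2 with DMSO, 2480 with serotonin and 2811 with loxapine, and 3020 to 3264 in the mutant groups. These shares and sums are descriptions without a test.

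**Figure D1:**
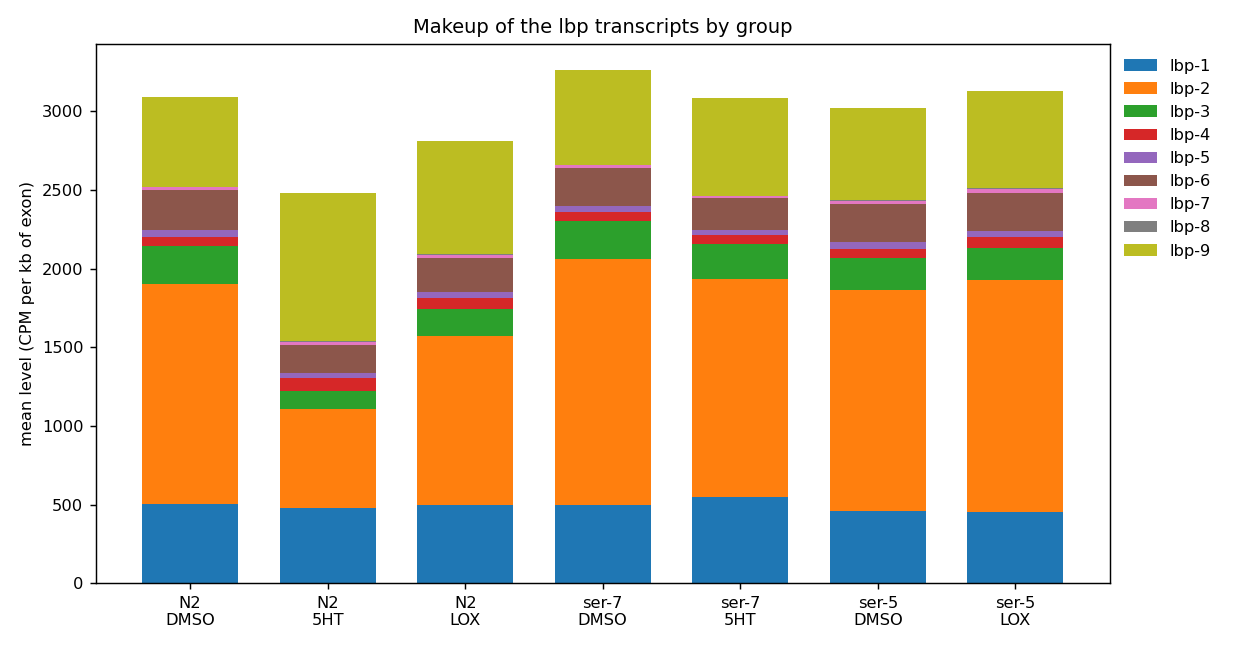
Stacked bars of the mean level of each lbp gene in CPM per kilobase of exon (y axis, linear from 0) for the 7 groups (x axis, 5HT for serotonin and LOX for loxapine). The lbp-2 segment is 45.4% of the bar in N2 with DMSO, 25.3% with serotonin and 38.1% with loxapine, and lbp-8 is too low to be seen.

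In N2, serotonin changed 6 of the 9 lbp genes in both directions: lbp-2, lbp-3 and lbp-6 fell, and lbp-4, lbp-8 and lbp-9 rose. A gene is said to rise, fall or change where its adjusted p was below 0.05 (edgeR quasi-likelihood F test, Benjamini-Hochberg adjustment over all 16431 genes). By the same rule 37.1% of all genes changed with serotonin in N2, 20.4% higher and 16.8% lower, so that changes were common across the table. This split depended on the scaling. Of the genes that changed, 54.8% were higher here, 62.1% with RLE size factors and 60.9% with DESeq2. The median log2 fold change was -0.17 over the 9 members and -0.12 over all genes tested. The members that did not pass were lbp-1, lbp-5 and lbp-7, with log2 fold changes of -0.07 to -0.39.

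Loxapine in N2 changed 2 of the 9, with lbp-3 lower and lbp-8 higher, where 18.9% of all genes changed, 10.5% higher and 8.38% lower. The other 7 members had log2 fold changes from -0.39 to 0.33. Serotonin and loxapine in N2 were compared with the same 5 DMSO libraries, so their values are given side by side below and are not independent. Serotonin in ser-7 changed 0 of the 9 members and 0% of all genes, with 1 member and 643 genes at an unadjusted p below 0.05 by edgeR and 0 genes past the threshold by DESeq2. Loxapine in ser-5 changed 0 of the 9 members where 0.0487% of all genes changed, with 0 members at an unadjusted p below 0.05 by edgeR and by DESeq2. A p-value that misses the threshold does not show that a level was the same.

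**Figure D2:**
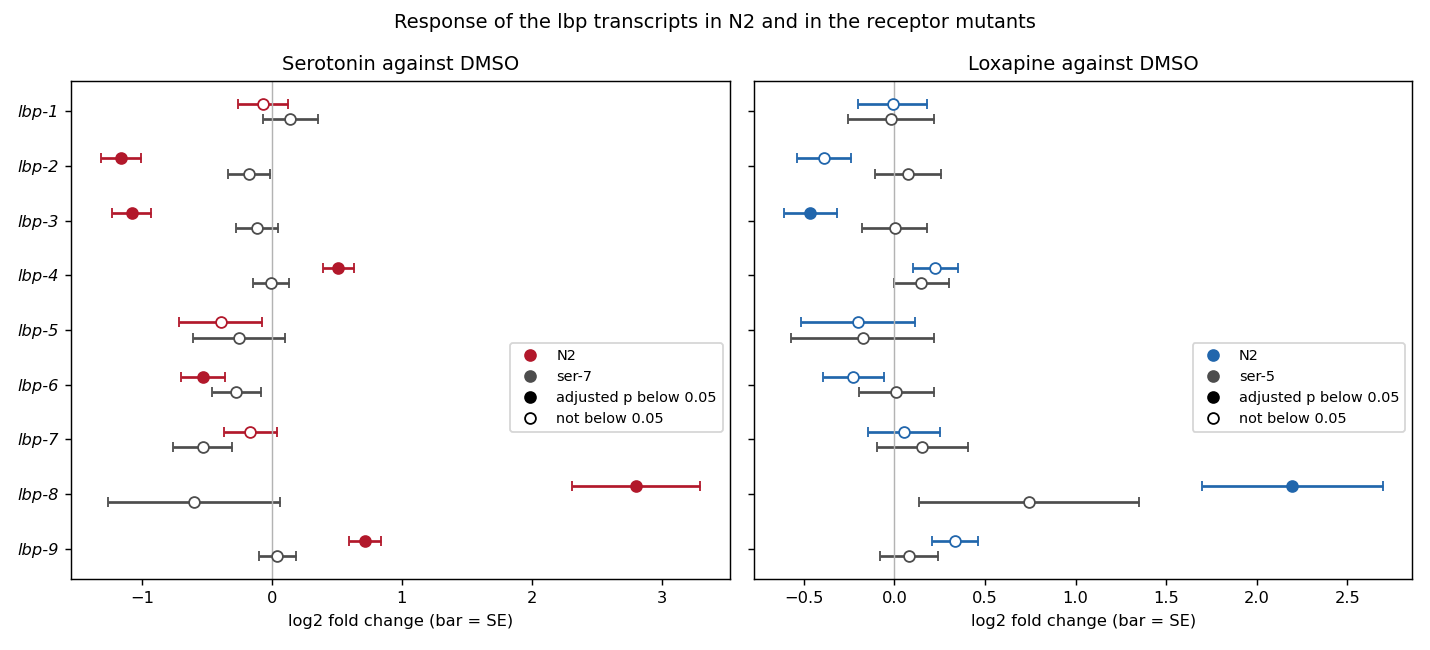
Log2 fold change of each lbp gene (x axis, bars give the standard error) for serotonin in N2 and ser-7 (left) and for loxapine in N2 and ser-5 (right), with filled points where the adjusted p was below 0.05. In N2, lbp-2 lies at -1.16 with serotonin and lbp-8 at 2.80, and every point of the mutants is open.

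The difference between strains was tested as the serotonin response of ser-7 minus that of N2. It passed the test for 4 of the 9 members, lbp-2, lbp-3, lbp-8 and lbp-9, where 15.6% of all genes passed. The loxapine response of ser-5 minus that of N2 passed for 0 of the 9 members and 0% of all genes by edgeR, with 0 members and 1561 genes at an unadjusted p below 0.05. DESeq2 gave 1 member at an unadjusted p below 0.05 and 20 genes past the threshold for this difference. Whether the loxapine response of any lbp gene differs between ser-5 and N2 is therefore not settled by these libraries. Between the strains with DMSO, 0 of the 9 members differed for ser-7 against N2, where 1.2% of all genes did, and 0 of the 9 for ser-5 against N2, where 0.00609% did. At an unadjusted p below 0.05, edgeR and DESeq2 each found 0 members for ser-7 against N2 and 1 member for ser-5 against N2, which was lbp-8 by edgeR.

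The lbp-2 gene encodes the most abundant member of the family and 1 of the members with a secretion signal. Its level in N2 with DMSO was 1083, 979.9, 1156, 1120 and 981 CPM in replicates 2 to 6. Serotonin replicates 1 to 3 had 346, 519.5 and 564 CPM. Each serotonin library lay well below the lowest DMSO library. This is a log2 fold change of -1.16 ± 0.15 (SE), or 2.23-fold lower, with an adjusted p of 2.77e-05. With loxapine the level was 597, 919 and 921 CPM, below every DMSO library but by a small margin in replicates 2 and 3. Its log2 fold change of -0.39 ± 0.15 did not pass the test (adjusted p = 0.0695). It passed with library series as a term (adjusted p = 0.0262), within a range from 0.0262 to 0.304 over 15 alternatives.

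In ser-7 with DMSO, lbp-2 stood at 1208, 1124 and 1232 CPM. Under serotonin it stood at 995, 1000 and 1161 CPM. The groups overlapped, and the log2 fold change was -0.18 ± 0.16 (adjusted p = 1.00). The response in ser-7 minus that in N2 was 0.98 ± 0.22 on the log2 scale and passed the test (adjusted p = 0.00806). In ser-5, lbp-2 was 973 to 1151 CPM with DMSO and 1044 and 1193 CPM with loxapine, with a log2 fold change of 0.07 ± 0.18. Set directly against loxapine in N2, serotonin gave lower lbp-2, with a log2 difference of -0.77 ± 0.16 (adjusted p = 0.0239). This was 1 of 9 members to pass, where 1.5% of all genes did. The call was lost in a fit of the compared groups only (adjusted p = 0.552) and without loxapine replicate 2 (0.172) or 3 (0.134), and adjusted p ranged from 0.00157 to 0.552 over 12 alternatives.

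The neighbouring gene lbp-3 encodes another member with a secretion signal and had the smallest SD relative to its mean among the 9 members in N2 with DMSO (147.5 ± 1.64 CPM, SD, n = 5). Its level with DMSO was 146, 147, 150.2, 148 and 147 CPM in replicates 2 to 6. Under serotonin it was 56.4, 73.3 and 80.3 CPM. The serotonin libraries were all far below the narrow DMSO range, and the log2 fold change was -1.08 ± 0.15 (2.11-fold lower, adjusted p = 4.5e-05). With loxapine it was 83.5, 111 and 126 CPM, again below every DMSO library. This log2 fold change of -0.46 ± 0.15 passed the test (1.38-fold lower, adjusted p = 0.0318). This loxapine call was lost with RLE size factors (adjusted p = 0.0556), with near-duplicate controls summed (0.0912), and without DMSO replicate 2 (0.0571), 4 (0.0508) or 5 (0.0594) or loxapine replicate 1 (0.138) or 2 (0.113), within a range from 0.00209 to 0.138 over 15 alternatives.

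In ser-7, lbp-3 was 135, 136 and 183 CPM with DMSO. Serotonin libraries had 128, 117 and 174 CPM. In both groups replicate 3 was the highest, and the log2 fold change was -0.12 ± 0.16 (adjusted p = 1.00). The response in ser-7 minus that in N2 was 0.96 ± 0.22 and passed the test (adjusted p = 0.00827). In ser-5, the level was 113, 125 and 142 CPM with DMSO and 122 and 132 CPM with loxapine, a log2 fold change of 0.00 ± 0.18. The loxapine response of ser-5 minus that of N2 was 0.47 ± 0.23 for lbp-3 and 0.46 ± 0.23 for lbp-2 (adjusted p = 0.53 and 0.542). Serotonin against loxapine in N2 gave -0.61 ± 0.16 for lbp-3 and missed the threshold (adjusted p = 0.0571). This difference passed without the low-count filter (0.0411), with the replicate block (0.00252), with library series as a term (0.00241) and without loxapine replicate 1 (0.0116). Adjusted p ranged from 0.00241 to 0.552 over 12 alternatives.

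The gene between them on the chromosome, lbp-1, did not pass the test with either compound, although it too encodes a member with a secretion signal. Its level in N2 was 259, 313, 275, 252 and 296 CPM with DMSO. Levels under serotonin were 276, 227 and 295 CPM, and with loxapine 274, 266 and 290.5 CPM. The 3 groups overlapped throughout, with log2 fold changes of -0.07 ± 0.19 (serotonin) and -0.01 ± 0.19 (loxapine). The sign of both differences turned with DESeq2 and with RLE size factors, so no direction is given. In the receptor mutants lbp-1 was between 191 and 412 CPM, a wider range than in N2. The highest library of each mutant strain was in library series 3 (412 CPM in ser-7, 314.5 in ser-5). The lowest was in series 2 (199.6 CPM in ser-7, 191 in ser-5).

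**Figure D3:**
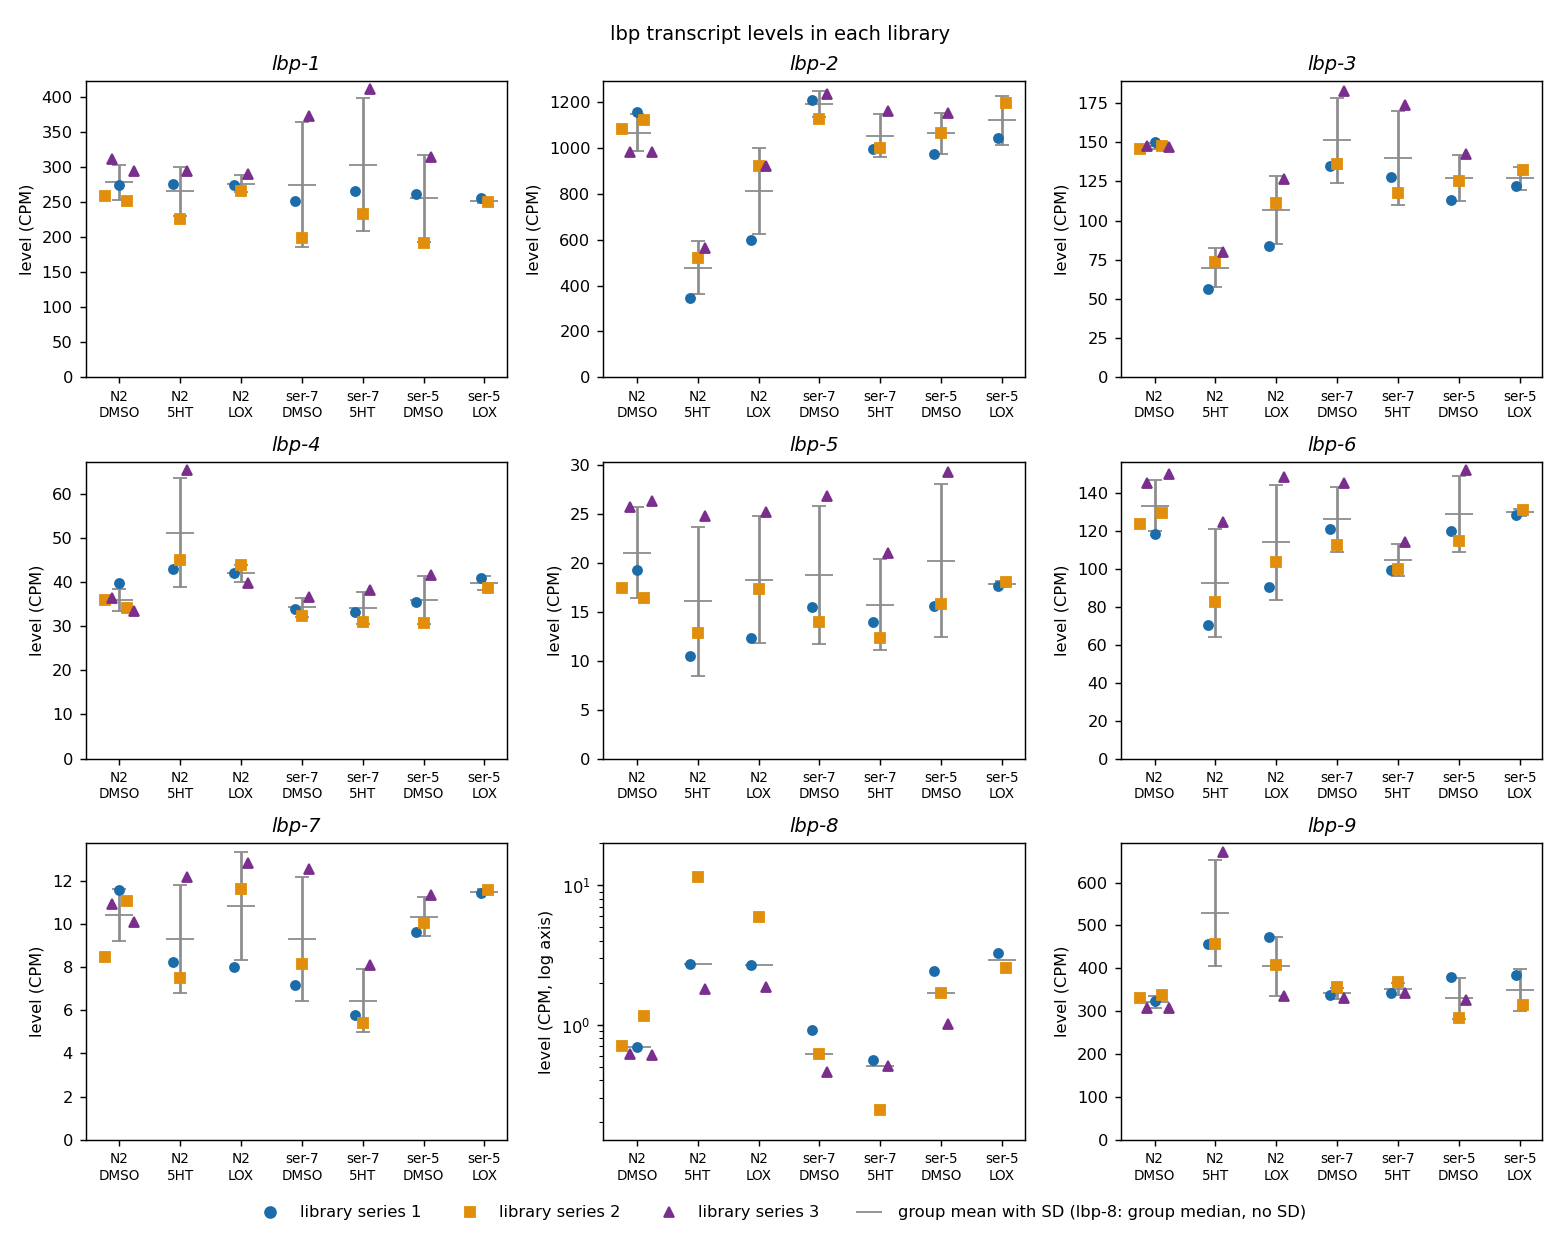
Level of each lbp gene in each library in CPM (y axis from 0, except a log axis for lbp-8) for the 7 groups (x axis), with symbols for the 3 library series and grey marks for the group mean and SD, or the group median for lbp-8. In N2, lbp-2 is at 346 to 564 CPM with serotonin against 979.9 to 1156 with DMSO, and in lbp-1, lbp-5 and lbp-6 the triangles of library series 3 top each group that has them.

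The gene with the largest fold change of the family was lbp-8, whose product carries lipid signals from lysosome to nucleus and which was the rarest member. N2 libraries with DMSO held 0.705, 0.617, 0.687, 1.16 and 0.602 CPM of lbp-8 in replicates 2 to 6, from 18 to 43 counts. With serotonin the libraries held 2.71, 11.4 and 1.8 CPM, from 106, 358 and 50 counts. All 3 serotonin libraries exceeded all 5 DMSO libraries, and replicate 2 stood far above the other 2. The log2 fold change was 2.80 ± 0.49 (6.97-fold, adjusted p = 0.000301). Without serotonin replicate 2 it was 1.58 (2.99-fold) and still passed (adjusted p = 0.00608), within a range from 6.88e-08 to 0.00741 over 15 alternatives.

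With loxapine in N2, lbp-8 was 2.67, 5.93 and 1.86 CPM, from 102, 186 and 61 counts. Each loxapine library exceeded the DMSO libraries, and replicate 2 was again the highest. The log2 fold change was 2.20 ± 0.50 (4.58-fold, adjusted p = 0.00773). Without loxapine replicate 2 it was 1.58 (2.99-fold) and no longer passed (adjusted p = 0.083), the upper end of a range that began at 0.000177 over 15 alternatives. Serotonin against loxapine gave 0.60 ± 0.53 on the log2 scale for lbp-8 (adjusted p = 0.545), a difference within the spread of the libraries.

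In ser-7, lbp-8 was 0.918, 0.614 and 0.457 CPM with DMSO. Those with serotonin had 0.562, 0.244 and 0.507 CPM, from 8 to 22 counts. The 2 groups overlapped. All 3 serotonin libraries and the lowest DMSO library lay below the lowest N2 library with DMSO, and the log2 fold change was -0.60 ± 0.66 (adjusted p = 1.00). The response in ser-7 minus that in N2 was -3.40 ± 0.83 and passed the test (adjusted p = 0.0126). Without N2 serotonin replicate 2 this difference was -2.18 (adjusted p = 0.0314), and over 21 alternatives the adjusted p ranged from 0.000332 to 0.0388.

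In ser-5, lbp-8 was 2.44, 1.69 and 1.011 CPM with DMSO and 3.25 and 2.55 CPM with loxapine. Of the 3 ser-5 libraries with DMSO, 2 lay above all N2 libraries with DMSO and the lowest lay inside their range. Against N2 with DMSO the log2 difference was 1.19 ± 0.51, with an unadjusted p of 0.0315 and an adjusted p of 0.863, so it did not pass. Both loxapine libraries of ser-5 lay above the 3 DMSO libraries, with a log2 fold change of 0.74 ± 0.61 (adjusted p = 1.00). The loxapine response of ser-5 minus that of N2 was -1.45 ± 0.80 (adjusted p = 0.578).

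LBP-5, the binding partner described for NHR-49, did not pass the test in any comparison of groups. In N2 it was 17.4, 25.7, 19.2, 16.4 and 26.3 CPM with DMSO. With serotonin it was 10.5, 12.8 and 24.8 CPM, and with loxapine 12.3, 17.4 and 25.2 CPM. Within each of these groups the library or libraries of series 3 were the highest. The log2 fold change with serotonin was -0.39 ± 0.32 (adjusted p = 0.356), and it passed once the library series was a term of the fit (adjusted p = 0.0109) within a range from 0.0109 to 0.73 over 15 alternatives. The value with loxapine was -0.20 ± 0.32 (adjusted p = 0.692). In the mutant groups lbp-5 was 12.3 to 29.2 CPM.

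Of the remaining members, lbp-9 was the most abundant and rose with serotonin in N2. Its level with DMSO was 330.2, 308, 324, 337 and 307 CPM. With serotonin it was 456, 457 and 672 CPM. Every serotonin library was above the DMSO libraries, with replicate 3 the highest, and the log2 fold change was 0.72 ± 0.13 (1.65-fold, adjusted p = 0.00023). With loxapine it was 473, 407 and 335 CPM, a range that touched that of DMSO. The log2 fold change of 0.33 ± 0.13 did not pass (adjusted p = 0.0688). It passed without loxapine replicate 3 (0.0412), in a fit of the compared groups only (0.0265) and with library series as a term (0.0488), within a range from 0.0265 to 0.284 over 15 alternatives.

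In ser-7, lbp-9 was 337, 356 and 331 CPM with DMSO and 343, 367.5 and 343 CPM with serotonin, a log2 fold change of 0.04 ± 0.14 (adjusted p = 1.00). The response in ser-7 minus that in N2 was -0.68 ± 0.19 and passed the test (adjusted p = 0.0218). The call was lost by a narrow margin with the replicate block (-0.66, adjusted p = 0.0516), with near-duplicate controls summed (0.0516) and without ser-7 serotonin replicate 1 (0.0524), and more widely without N2 serotonin replicate 3 (0.0815), within a range from 0.00603 to 0.0815 over 21 alternatives. In ser-5, lbp-9 was 380, 284 and 327 CPM with DMSO and 383.5 and 314 CPM with loxapine, and the groups overlapped. On the opposite strand, 5 nucleotides of lbp-9 are shared with Y40B10A.9. That gene moved the other way with serotonin in N2, from 14.1 to 9.94 CPM (log2 fold change -0.50 ± 0.12, adjusted p = 0.00296).

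The lbp-4 gene also rose with serotonin in N2, by less. It was 35.8, 36.3, 39.7, 34.1 and 33.4 CPM with DMSO. With serotonin it was 43.1, 45.0 and 65.4 CPM. Replicate 3 was the highest and the other 2 lay just above the DMSO libraries, with a log2 fold change of 0.51 ± 0.12 (1.43-fold, adjusted p = 0.00242). Without serotonin replicate 3 it was 0.29 and passed narrowly (adjusted p = 0.0474), the upper end of a range that began at 0.000366 over 15 alternatives. With loxapine it was 42.1, 43.9 and 39.9 CPM, a log2 fold change of 0.23 ± 0.12 (adjusted p = 0.2), which passed in a fit of the compared groups only (0.0385, range 0.0385 to 0.444). In ser-7 the level was 32.2 to 36.6 CPM with DMSO and 31.1 to 38.2 CPM with serotonin, and the log2 fold change was 0.00 ± 0.14. The response in ser-7 minus that in N2 was -0.52 ± 0.18 and missed the threshold (adjusted p = 0.0608). It passed with DESeq2 (0.0359), RLE size factors (0.0489), library series as a term (0.0247) and without N2 serotonin replicate 1 (0.0138) or 2 (0.0471), within a range from 0.0138 to 0.235 over 21 alternatives.

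The lbp-6 gene fell with serotonin in N2 by a margin that rested on single libraries. Its level with DMSO was 124, 145, 118, 129 and 149.8 CPM. With serotonin it was 70.4, 82.6 and 124 CPM. Replicates 1 and 2 were below every DMSO library and replicate 3 was inside their range, with a log2 fold change of -0.53 ± 0.17 (1.44-fold lower, adjusted p = 0.0187). The call was lost without serotonin replicate 1 (adjusted p = 0.104) or 2 (0.0875), with DESeq2 (0.053), with RLE size factors (0.0635) and with near-duplicate controls summed (0.0614), within a range from 8.97e-05 to 0.104 over 15 alternatives. With loxapine the level was 90.2, 103 and 148 CPM (log2 fold change -0.23 ± 0.17, adjusted p = 0.361). In ser-7 it was 112 to 145 CPM with DMSO and 99.5 to 114.3 CPM with serotonin (log2 fold change -0.27 ± 0.19, adjusted p = 1.00). The serotonin responses of lbp-6 in ser-7 and N2 differed by 0.26 ± 0.25, which did not pass (adjusted p = 0.531). On the opposite strand, 35 nucleotides of lbp-6 are shared with mec-6, whose level in N2 was 8.55 CPM under DMSO against 7.54 under serotonin (adjusted p = 0.469).

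The lbp-7 gene did not pass the test in any comparison of groups. In N2 it was 8.46 to 11.6 CPM with DMSO, 7.5 to 12.2 CPM with serotonin and 8.01 to 12.8 CPM with loxapine. Its largest difference was in ser-7, where it was 7.15, 8.16 and 12.6 CPM with DMSO and 5.8, 5.4 and 8.11 CPM with serotonin. Those groups overlapped. The log2 fold change of -0.53 ± 0.23 had an unadjusted p of 0.0301 and an adjusted p of 1.00.

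The values not yet given were all short of the threshold. For ser-7 against N2 with DMSO, the log2 differences were -0.02 for lbp-1, 0.16 for lbp-2, 0.04 for lbp-3, -0.07 for lbp-4, -0.17 for lbp-5, -0.08 for lbp-6, -0.17 for lbp-7, -0.18 for lbp-8 and 0.09 for lbp-9. For ser-5 against N2 with DMSO they were -0.12 for lbp-1, -0.0019 for lbp-2, -0.22 for lbp-3, 0.0011 for lbp-4, -0.06 for lbp-5, -0.05 for lbp-6, -0.01 for lbp-7 and 0.04 for lbp-9. Apart from lbp-8 in ser-5, the estimates between strains with DMSO lay from -0.22 to 0.16 on the log2 scale.

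Serotonin against loxapine in N2 gave log2 differences of -0.06 for lbp-1, 0.29 for lbp-4, -0.19 for lbp-5, -0.30 for lbp-6, -0.22 for lbp-7 and 0.38 for lbp-9. Loxapine in ser-5 gave -0.02 for lbp-1, 0.15 for lbp-4, -0.17 for lbp-5, 0.01 for lbp-6, 0.15 for lbp-7 and 0.08 for lbp-9. All of these estimates were smaller in size than the serotonin responses of lbp-2, lbp-3 and lbp-8 in N2. Serotonin in ser-7 gave 0.14 for lbp-1 and -0.25 for lbp-5, and the response of ser-7 minus that of N2 was 0.21 for lbp-1, 0.14 for lbp-5 and -0.36 for lbp-7. The loxapine response of ser-5 minus that of N2 was -0.01 for lbp-1, -0.08 for lbp-4, 0.03 for lbp-5, 0.24 for lbp-6, 0.10 for lbp-7 and -0.25 for lbp-9. In N2, lbp-7 had -0.17 with serotonin and 0.05 with loxapine.

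The 7 group means spanned 2.49-fold for lbp-2, 2.16-fold for lbp-3 and 12.1-fold for lbp-8, and at most 1.79-fold for the other 6 members. In lbp-2 the order ran from ser-7 with DMSO (1188 CPM) through ser-5 with loxapine (1119), N2 with DMSO (1064), ser-5 with DMSO (1062) and ser-7 with serotonin (1052) to N2 with loxapine (812.5) and N2 with serotonin (477). Neighbours in this order overlapped in their libraries except at the last 2 steps. In lbp-3 only the last step, from N2 with loxapine (107 CPM) to N2 with serotonin (69.98), had no overlap. In lbp-8 only the step from ser-5 with loxapine (2.9 CPM) to ser-5 with DMSO (1.72) had none. Neighbouring groups overlapped at every step for lbp-1, lbp-4, lbp-5, lbp-6, lbp-7 and lbp-9. The share of all genes with such gaps between neighbouring groups was not counted, so the gaps are not read as a trait of these members.

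Library series moved with several members. Series 3 was compared with series 1 and 2 in a fit with group and series as terms, a test added after the values were seen. Of the 9 members, 6 passed, where 31.9% of all genes did. The largest difference was in lbp-5, at 0.78 ± 0.08 on the log2 scale (adjusted p = 3.08e-07). It was 20.9 to 29.2 CPM in series 3 and 10.5 to 19.2 CPM elsewhere. Smaller differences in the same direction were found in lbp-6 (0.40 ± 0.06), lbp-1 (0.39 ± 0.07), lbp-7 (0.37 ± 0.10) and lbp-3 (0.28 ± 0.06). In lbp-8 series 3 was lower (-0.91 ± 0.32, adjusted p = 0.0351). In all 6 groups that had them, the series 3 libraries were above the rest of their group for lbp-1, lbp-5 and lbp-6. The share of all genes with such a separation was not counted, so it is not read as a trait of these members.

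For the 6 members that changed with serotonin in N2, the direction of the difference was the same in each library series. They were picked by a test on these same libraries, so this is no separate support. A member that did not pass, lbp-5, also kept its direction (-0.87, -0.395 and -0.07). The log2 differences in series 1, 2 and 3 were -1.74, -1.08 and -0.80 for lbp-2. They were -1.41, -1.001 and -0.87 for lbp-3, and -0.75, -0.62 and -0.24 for lbp-6. The fall of each of these genes was thus largest in series 1 and smallest in series 3. For lbp-4 the differences were 0.12, 0.37 and 0.91, and for lbp-9 they were 0.49, 0.46 and 1.13. The rise in both of these genes was largest in series 3. For lbp-8 the differences were 1.90, 3.57 and 1.48, with the largest in series 2. With loxapine in N2 they were -0.85, -0.40 and -0.22 for lbp-3 and 1.87, 2.64 and 1.52 for lbp-8. Of the members that did not pass with loxapine, lbp-2, lbp-4 and lbp-9 also kept their direction. Their values were -0.95, -0.26 and -0.09 for lbp-2, 0.08, 0.33 and 0.20 for lbp-4, and 0.55, 0.29 and 0.12 for lbp-9. Each of these values rests on 1 treated library. The share of all genes that kept their direction over the series was not counted, so a kept direction is not read as support.

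**Figure D4:**
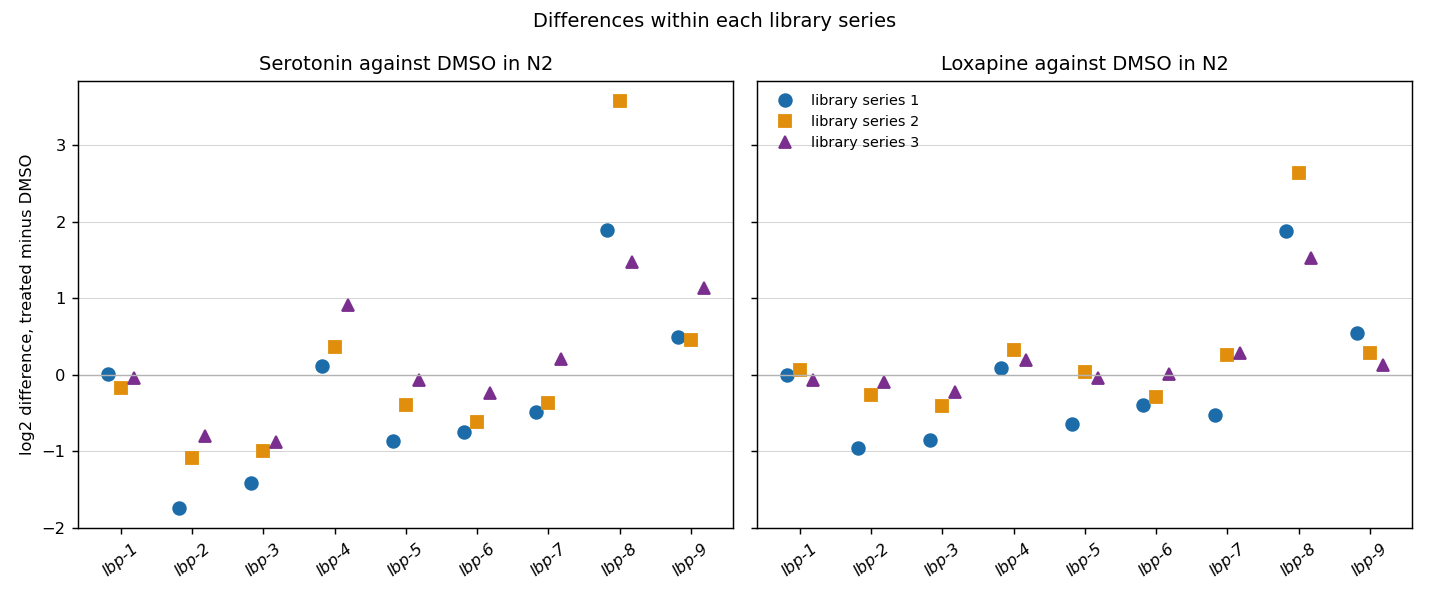
Log2 difference between the treated library and the mean of the DMSO libraries of the same library series (y axis) for each lbp gene (x axis), with serotonin (left) and loxapine (right) in N2, 1 symbol per series. With serotonin the 3 symbols of lbp-2, lbp-3 and lbp-6 lie below 0 and those of lbp-4, lbp-8 and lbp-9 above it, and for lbp-8 series 2 lies at 3.57.

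Markers of tissues moved with the compounds in N2 as well. In whole animals, fewer cells of a type and less RNA per cell cannot be told apart. The shares of all genes to read these counts against are 20.4% higher and 16.8% lower with serotonin, and 10.5% higher and 8.38% lower with loxapine. Of 10 body wall muscle markers, 9 fell with serotonin and 9 with loxapine, and their summed level was 3944 to 4732 CPM with DMSO, 2025 to 2539 CPM with serotonin and 2130 to 2904 CPM with loxapine. All 8 oocyte markers in the table rose with both compounds, from a summed level of 3696 to 4574 CPM to 6011 to 10220 CPM with serotonin and 5332 to 6402 CPM with loxapine. With serotonin, 6 of 9 pharynx markers, 8 of 10 neuron markers, 3 of 10 hypodermis markers and 3 of 9 intestine markers fell, and 0 of 8 sperm markers tested changed. With loxapine, 3 of 9 pharynx, 3 of 10 neuron and 3 of 10 hypodermis markers fell, and 0 of 9 intestine and 0 of 8 sperm markers changed. The summed intestine level was 1072 to 1263 CPM with DMSO, 1002 to 1104 CPM with serotonin and 1001 to 1431 CPM with loxapine. In ser-7 and ser-5, no marker of the 7 lists changed with the compound, where 0% and 0.0487% of all genes did. No listed marker found in the table was at 0 in all libraries. The part of these tissue differences in the lbp results was not tested.

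Other genes of fatty acid handling were read from 7 lists. The far genes, which encode another family of fatty acid and retinol binding proteins, fell with serotonin in N2 in 5 of 6 cases, where 16.8% of all genes fell, with a list median of -0.92 on the log2 scale against -0.12 over all genes. The most changed was far-6, from a mean of 445 CPM with DMSO to 169.7 ± 36.5 CPM with serotonin (SD, n = 3), a log2 fold change of -1.39 ± 0.16. With loxapine far-6 was the single far gene of 6 to fall, where 8.38% of all genes fell. It went to 272 ± 72.3 CPM (-0.71 ± 0.16, adjusted p = 0.00658). In ser-7 with serotonin 0 of the 6 changed, where 0% of all genes did. The difference in response between ser-7 and N2 passed for 4 of 6, all 4 higher, where 15.6% of all genes passed in either direction.

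Among 8 lysosomal acid lipases, 3 fell with serotonin in N2 and 0 changed with loxapine. Over all genes, 20.4% rose and 16.8% fell with serotonin, and 10.5% rose and 8.38% fell with loxapine, and the counts of this list and of those that follow are to be read beside these shares. The lipase gene lipl-4, whose product makes the signal that LBP-8 carries, went from 1.52 ± 0.401 CPM in the controls to 0.872 ± 0.0682 CPM under serotonin (log2 fold change -0.81 ± 0.28, adjusted p = 0.0293). It fell while lbp-8 rose, and a link between these changes was not tested. An even lower gene, lipl-8, went from 0.923 to 0.145 CPM (-2.54 ± 0.80). Of 13 regulators of fat metabolism, 2 rose and 3 fell with serotonin. The list held nuclear receptors, the cofactor gene mdt-15 and the transcription factor genes sbp-1 and hlh-30. Those that fell included nhr-80, from 15.6 ± 1.46 to 10.4 ± 0.497 CPM (-0.58 ± 0.13, adjusted p = 0.00129). The lysosomal regulator hlh-30 fell from 147 ± 19.1 to 100.1 ± 36.2 CPM (-0.55 ± 0.20, adjusted p = 0.0371). With loxapine hlh-30 was at 90.1 ± 25.1 CPM (-0.71 ± 0.20, adjusted p = 0.0226) and nhr-13 rose (0.34 ± 0.11, adjusted p = 0.042), 1 gene in each direction out of 13.

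Of 22 fatty acid oxidation genes, 4 rose and 2 fell with serotonin in N2, and 2 rose and 1 fell with loxapine. Carnitine palmitoyltransferase genes went both ways with serotonin, with cpt-6 higher (0.66 ± 0.18) and cpt-3 lower (-2.41 ± 0.76). With loxapine the acyl-CoA dehydrogenase gene acdh-1 rose from 559 ± 94.5 to 987 ± 266 CPM (0.82 ± 0.18), and hacd-1 rose by 1.07 ± 0.23. Of 15 genes for fatty acid synthesis and desaturation, 3 rose and 2 fell with each compound. The palmitoyl-CoA desaturase gene fat-5 fell with serotonin from 170.3 ± 14.8 to 53.5 ± 13.9 CPM (-1.67 ± 0.18). The elongase gene elo-6 rose with serotonin (0.95 ± 0.35, adjusted p = 0.0434) and with loxapine (1.37 ± 0.35, adjusted p = 0.0152). With loxapine elo-5 rose (1.28 ± 0.42, adjusted p = 0.0448). Some of these calls lay close to the threshold.

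Of 10 genes for fat storage and lipid droplets, 4 rose and 2 fell with serotonin. The 2 that fell were dgat-2, a diacylglycerol acyltransferase gene (-0.92 ± 0.15), and acs-22 (-0.57 ± 0.13). With loxapine 2 of the 10 rose, among them lid-1 (0.45 ± 0.10), and 1 fell, the hormone-sensitive lipase homologue hosl-1 (-0.41 ± 0.12). Of 6 lipoprotein carrier and uptake genes, 4 rose with serotonin and 2 with loxapine. The yolk protein gene vit-4 rose with serotonin from 503 ± 166 to 991 ± 197 CPM (0.98 ± 0.34, adjusted p = 0.0331). With loxapine vit-1 rose and passed narrowly (0.74 ± 0.25, adjusted p = 0.0478). The yolk receptor gene rme-2 rose with both, by 0.93 ± 0.15 and 0.55 ± 0.15, and is also 1 of the oocyte markers. In ser-7 with serotonin and in ser-5 with loxapine, 0 genes of these 7 lists changed, where 0% and 0.0487% of all genes did. Unlike the calls of the lbp members, those of single list genes were not followed under the alternatives.

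Across the 7 group means, the genes with profiles nearest to a member were found for the 3 members whose means spanned at least 1 on the log2 scale, as the mean absolute difference of centred log2 CPM. For lbp-2 they were F08D12.7 (0.04), B0462.5 (0.041) and T19E7.6 (0.042). For lbp-3 they were W09C3.7 (0.045), ZK287.9 (0.045) and pbo-5 (0.049). The nearest profiles to lbp-8 had larger distances, in gba-2 (0.299), asp-14 (0.313) and dod-24 (0.315). The profile of lbp-8 spanned 3.04 on the log2 scale, against 1.35 for lbp-2 and 1.11 for lbp-3. Only genes with a mean log2 CPM of 2 or more were searched, a level that lbp-8 itself did not reach. Its distances are thus not comparable with those of lbp-2 and lbp-3. In gba-2 the centred level was 2.0 in N2 with serotonin and -1.94 in ser-7 with serotonin. These distances are descriptions over 7 groups that share library series.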

How the data were processed

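The authors deposited 1 table of integer read counts per gene and library, with no scaling. Per the labels' protocols, libraries were single reads of 100 nucleotides, 6 to a lane. Sources used here do not give the aligner, the counter or the build. Of the symbols, 11 had become dates and were restored through gene identifiers. In R 4.3.3, edgeR 4.0.16 filtered genes (minimum count 10, minimum total 15), applied TMM scaling and estimated group means of all 22 libraries together (robust quasi-likelihood, 15 residual degrees of freedom). P-values were adjusted by Benjamini-Hochberg over 16431 genes, with a threshold of 0.05, in 9 comparisons. Standard errors are log2 fold changes divided by the root of F. The fit was tested on simulated counts.

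Alternatives were DESeq2 1.42.0, RLE size factors, no low-count filter, the compared groups only, blocks for batch tag or library series, summed near-duplicate controls and leaving out each library. The batch tag of the labels pairs libraries across groups. Deviations from group means correlated at -0.0959 to 0.648 (median 0.230) over the 51 pairs with a shared tag, and 38 lay over 0.1. Over the 154 pairs with different tags the median was -0.0897, and 37 lay over 0.1. By library series, the median was 0.247 over 68 pairs of the same series and -0.13 over 137 pairs of different series. The main fit had neither tag nor series as a term. Tags of N2 with DMSO replicates 4 to 6 belong to single libraries, which the replicate block leaves without weight.

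The members, gene lists and markers were chosen with earlier results of these data known. Members are reported whether or not they passed, singly or by their range. From each list, up to 2 genes past the threshold with the largest changes are named for each compound. The 3 nearest profiles were sought among genes whose mean log2 CPM was 2 or more. Counting depth limits lbp-8, with 8 to 358 counts a library.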

Additional observations from a re-analysis of the deposited data

Results flagged for a closer look

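In N2 with DMSO, 1 of the 5 libraries stood apart for lbp-8: replicate 5 had 1.16 CPM against 0.602 to 0.705 CPM in the other 4. The gap to the nearest library was 0.815 of the group's range, above the limit of 0.71 for 5 samples. About 1 group in 20 passes this limit by chance. The serotonin response of ser-7 minus that of N2 passed the test for lbp-2 (0.98 on the log2 scale), lbp-3 (0.96), lbp-8 (-3.40) and lbp-9 (-0.68). No explanation of these differences was tested.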

How the results depend on the processing

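The tally under the alternatives covers 47 results on single members, which are only a part of the member results given above. Of the members compared between strains with DMSO, lbp-8 alone was included. Of 726 values for these 47 results, 659 kept their direction and their side of the threshold. Another 20 lost the call, 15 gained it and 32 turned in sign. None of the results whose sign turned had passed the test. The number of members called stayed at 5 to 7 for serotonin in N2 and at 3 to 5 for the difference in serotonin response under every alternative, with 3 for the latter under the replicate block. For loxapine in N2 it was 1 with RLE size factors or summed controls, 4 with the compared groups only or library series as a term, and 0 to 3 when leaving out 1 library. For serotonin against loxapine it was 2 without the filter, with the replicate block or with library series as a term, 0 with the compared groups only, and 0 to 2 when leaving out 1 library. The replicate block changed the call of no member beyond those given for lbp-9 and lbp-3.

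Signs turned for lbp-1 with serotonin in N2 (0.0047 with DESeq2, 0.0043 with RLE, -0.155 to 0.0354 without 1 library), lbp-1 with loxapine in N2 (0.0153 with DESeq2, 0.0151 with RLE, 0.0102 with compared groups only, 0.005 with library series, -0.0448 to 0.0352 without 1 library), and lbp-7 with serotonin in N2 (0.0327 with the replicate block). They also turned for lbp-4 in ser-7 (0.0014 with compared groups only, -0.0927 to 0.0597 without 1 library) and lbp-3 in ser-5 (-0.0002 with DESeq2, -0.0083 with compared groups only, -0.0741 to 0.0932 without 1 library). Leaving out 1 library alone turned lbp-5 (-0.504 to 0.0184) and lbp-7 (-0.088 to 0.23) with loxapine in N2, lbp-3 in ser-7 (-0.303 to 0.0417), lbp-2 in ser-5 (-0.0396 to 0.147), lbp-8 in ser-7 against N2 (-0.483 to 0.0278), lbp-8 in serotonin against loxapine (-0.617 to 1.23), and lbp-1 (-0.0719 to 0.496) and lbp-5 (-0.12 to 0.602) in the difference in serotonin response. Member results outside the 47 of the tally are not covered by this list. The cause of the turned signs was not tested.

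Over all genes, loxapine in N2 called 3101 genes, 5275 with library series, 1129 with summed controls and 556 to 3451 without 1 library. Serotonin in N2 called 6102, and 3897 to 7249 without 1 library. The difference in serotonin response called 2565, 4134 with library series, 1583 with summed controls and 1203 to 4490 without 1 library. Serotonin against loxapine called 246, 708 with DESeq2, 8 with compared groups only, 896 with the replicate block, 1293 with library series and 33 to 1437 without 1 library. For ser-7 against N2 it was 197, 493, 369, 3 and 848 in the same order, 4 with summed controls and 2 to 250 without 1 library. The other 4 comparisons called 0 (serotonin in ser-7), 8 (loxapine in ser-5), 1 (ser-5 against N2) and 0 (difference in loxapine response) and at most 10, 12, 5 and 43 under an alternative. Where ser-5 with loxapine was left with 1 library, that library was assumed to vary like the other groups.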
